A study of Mus musculus with 4 samples.

Results

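Invariant natural killer T (iNKT) cells recognize lipids on CD1d with an αβ T cell receptor (TCR), so the TCRγ and TCRδ transcripts that they hold are not needed for that receptor. Expression of 5 such genes, Trgv2, Tcrg-C1, Tcrg-C2, Tcrg-C4 and Trdc, was followed across thymic iNKT stages and genotypes. These members were picked by symbol from 26 TCRγ and TCRδ genes among the 31053 genes counted, and they were chosen from earlier results of the same data, so their levels and differences are described here without a test. PBS57-CD1d tetramer+ thymocytes from untreated mice aged 8 to 9 weeks were sorted as an equal mix of CD44low and CD44high cells (by a similar strategy for Hivep3-/-) and profiled with droplet 5′ chemistry (10x Genomics), with 2 C57BL/6 wildtype mice and 2 Hivep3-/- mice and 1 library per mouse. Hivep3-/- mice lack the zinc finger protein HIVEP3 in every cell and had been backcrossed to C57BL/6. The sources used here do not give which libraries were run on the same day, so genotype and day of processing cannot be told apart.

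The TCRγ locus holds several V genes, each near a J and a C gene, and is rearranged in immature thymocytes. The γ chain pairs with a δ chain in γδ T cells, while in thymocytes that become αβ T cells the δ genes, which lie inside the α locus, are usually deleted when the α chain is rearranged. The γ locus is not deleted in this way. Tcrg-C1, Tcrg-C2 and Tcrg-C4 encode constant regions of the γ chain, Trgv2 encodes a variable region, and Trdc encodes the constant region of the δ chain. iNKT17 cells produce IL-17, as does a subset of γδ T cells.

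In the mouse GRCm38 assembly, 15 TCRγ genes of the count tables spanned 175 kb of chromosome 13, from 19178024 to 19352756. Trgv2 (chr13:19336573-19337167, 2 exons) and Tcrg-C2 (chr13:19304649-19307551, 3 exons) lie on the minus strand, together with the joining segment Trgj2. Tcrg-C1 (chr13:19214103-19217024, 3 exons) and Tcrg-C4 (chr13:19344558-19352756, 4 exons) lie on the plus strand. Trdc (chr14:54142851-54148868) lies on the plus strand of chromosome 14, where the genes Gm43434 and Trdv5 overlap it on the other strand.

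The γ constant genes are close copies of each other, and this bears on how their counts can be told apart. The first 90 bases of constant exon 1, which are coding, are shown from the GENCODE vM21 transcripts, 5′ to 3′ on the strand of each gene (Tcrg-C1 chr13:19214103-19214192, Tcrg-C2 chr13:19307462-19307551, Tcrg-C3 chr13:19260885-19260974 and Tcrg-C4 chr13:19344558-19344647). Capitals in Tcrg-C1 mark positions at which any of the other genes differs, and capitals in the others mark bases that differ from Tcrg-C1.
Tcrg-C1: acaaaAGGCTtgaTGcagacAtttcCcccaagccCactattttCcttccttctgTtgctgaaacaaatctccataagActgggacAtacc
Tcrg-C2: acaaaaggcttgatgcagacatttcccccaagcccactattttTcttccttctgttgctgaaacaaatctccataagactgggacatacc
Tcrg-C3: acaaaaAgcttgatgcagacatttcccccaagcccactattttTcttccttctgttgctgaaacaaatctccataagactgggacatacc
Tcrg-C4: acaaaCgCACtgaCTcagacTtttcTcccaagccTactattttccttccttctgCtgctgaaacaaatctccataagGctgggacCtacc
Within these 90 bases, Tcrg-C2 differed from Tcrg-C1 at 1 base, Tcrg-C3 at 2 and Tcrg-C4 at 12. Over the whole 330-base exon 1, Tcrg-C1 was 97.3% identical to Tcrg-C2, with a longest identical run of 71 bases, and 82.1% identical to Tcrg-C4, with a longest run of 29 bases. Counts of Tcrg-C1, Tcrg-C2 and Tcrg-C3 are therefore less certain than those of Tcrg-C4, because a short read from exon 1 can match more than 1 of them.

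Trgv2 has close copies as well, Tcrg-V1 and Tcrg-V3, which is why they are set beside it. The first 90 bases of the second exon are shown (Trgv2 chr13:19336790-19336879, minus strand; Tcrg-V1 chr13:19340151-19340240 and Tcrg-V3 chr13:19242995-19243084, plus strand). Capitals in Trgv2 mark positions at which either of the other genes differs, and capitals in those mark bases that differ from Trgv2.
Trgv2: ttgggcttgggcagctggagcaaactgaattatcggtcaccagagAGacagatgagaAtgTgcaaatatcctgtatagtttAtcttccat
Tcrg-V1: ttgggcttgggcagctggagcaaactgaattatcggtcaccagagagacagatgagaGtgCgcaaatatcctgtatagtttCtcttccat
Tcrg-V3: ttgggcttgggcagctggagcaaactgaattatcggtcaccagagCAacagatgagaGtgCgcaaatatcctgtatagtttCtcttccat
The coding sequence of Trgv2 was 95.1% identical to that of Tcrg-V1 and 93.8% to that of Tcrg-V3, but 60.3% to that of Tcrg-V4. Reads that fall in an identical run of up to 74 bases cannot tell Trgv2 from Tcrg-V1, so these genes were also read together with Tcrg-V4, which shares no 50-base window with Trgv2.

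After quality control, 7231 and 3651 cells of C57BL/6 replicates 1 and 2 and 4598 and 4167 cells of Hivep3-/- replicates 1 and 2 were kept, with 25518692 to 45022744 unique molecular identifiers (UMIs) per library. Cells were clustered without any TCR gene and named from marker lists as stage 0-like (CD24-high precursors), cycling-like, iNKT2-like, iNKT17-like and iNKT1-like. In iNKT17-like cells, 12 of the 12 markers were higher than in the other cells. In iNKT2-like cells 7 of 8 were, with Ltb lower, and in the other named classes all were. The same markers named the classes, so this is no separate check. An interferon-led cluster (led by Ifit3 and Ifit1) and clusters 3 (Izumo1r, Cxcr3), 8 (Tnni1, Htra3) and 12 (Malt1, Fosb, few UMIs) were left out of these classes. The 4 libraries shared 0.493 to 1.01% of the barcodes of the smaller library of a pair. Hivep3 was counted at 38.5 and 36.4 UMIs per 1000000 (CPM) in the C57BL/6 libraries and at 101 and 68.0 CPM in those labelled Hivep3-/-. A 5′ count does not show which exons a transcript holds, so Hivep3 did not check these labels.

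C57BL/6 replicate 1 stood apart for the constant genes of the αβ TCR. In it, 81.4% of cells had a UMI of Trac, Trbc1 or Trbc2, the αβ constant genes, against 95.3 to 96.0% in the other 3 libraries. The summed level of these 3 genes was 540 CPM in that library and 956 to 1020 CPM in the others. Genotype differences of the γ members in the later classes are therefore given with and without it. Levels are raw sums of UMIs per library and class over all UMIs of the same cells, and log2 differences come from a fit across all genes with TMM scaling. Counts at the 5′ end were not scaled by length, so the levels of different genes are not ranked against each other. In sums over cells, fewer cells with the transcript and less RNA per cell cannot be told apart.

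γ transcripts were almost absent from stage 0-like cells and were present from the cycling-like class onward. Trgv2 stood at 9.31 and 11.6 CPM in the stage 0-like cells of C57BL/6 replicates 1 and 2 and at 0.415 and 5.22 CPM in those of Hivep3-/- replicates 1 and 2, from 14, 8, 1 and 13 UMIs. In cycling-like cells it stood at 146 and 167 CPM in C57BL/6 and at 202 and 170 CPM in Hivep3-/- libraries. All 4 libraries were thus far higher in cycling-like than in stage 0-like cells. Per UMI counted, Trgv2 was 15.7 times as frequent in cycling-like as in stage 0-like cells of C57BL/6 replicate 1 (exact 95% interval 9.35 to 28.8). The ratio was 14.5 (7.31 to 33.6) in C57BL/6 replicate 2 and 32.6 (19.0 to 61.5) in Hivep3-/- replicate 2. In Hivep3-/- replicate 1 it rested on 1 stage 0-like UMI, with an interval from 86.9 to 19200. These intervals, like those of all shares below, cover counting error only.

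The constant genes were also near 0 in stage 0-like cells. Tcrg-C2 ranged from 0 to 3.32 CPM and Tcrg-C4 from 0.665 to 2.89 CPM over the 4 libraries. Tcrg-C1 was at 0.803 to 1.99 CPM in 3 of the libraries and at 24.5 CPM in C57BL/6 replicate 2, where 16 of its 17 UMIs came from a single cell. The αβ constant genes were abundant in the same cells, with a summed level of 1010 to 2510 CPM, so the low γ counts did not go along with low αβ constant counts.

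**Figure D1:**
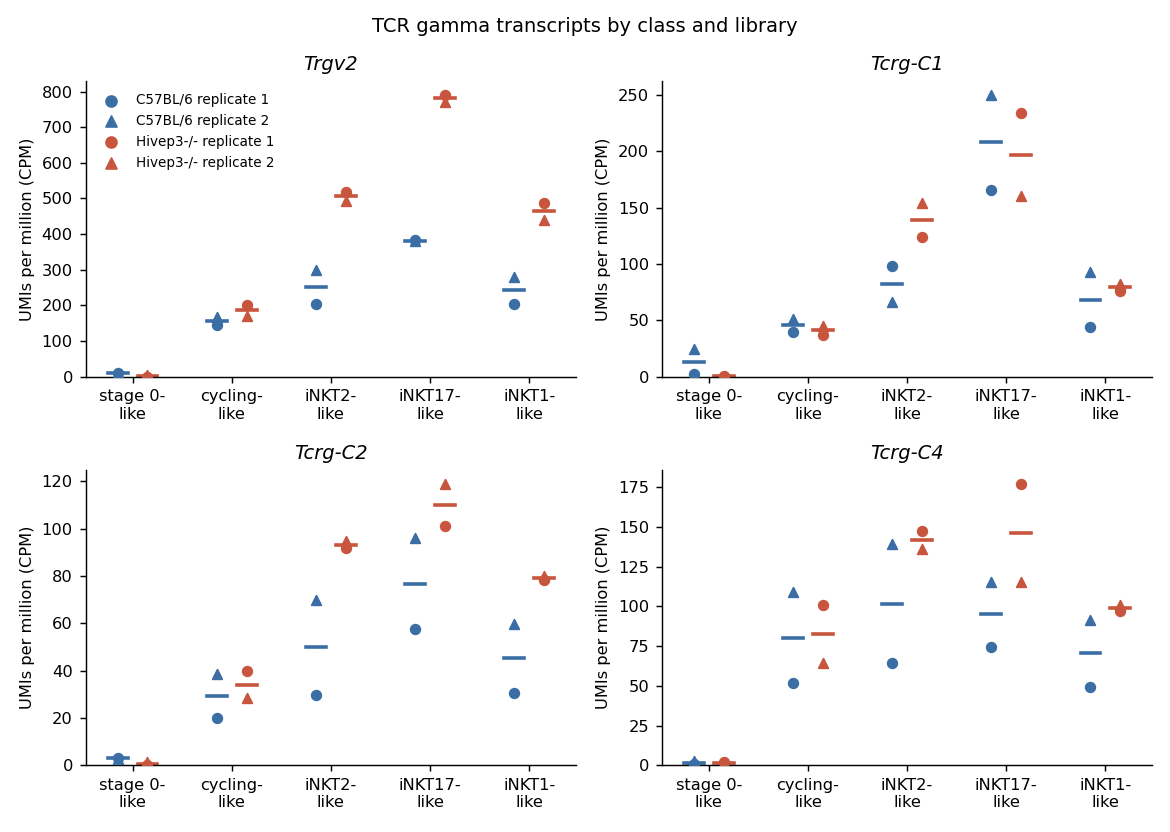
Level of Trgv2, Tcrg-C1, Tcrg-C2 and Tcrg-C4 in CPM (y axis, from 0) by class (x axis), with a point per library (circle, replicate 1; triangle, replicate 2) and a short line at the mean of each genotype (n = 2). Trgv2 in iNKT17-like cells lay at 381 and 383 CPM in C57BL/6 and at 771 and 790 CPM in Hivep3-/- libraries, above each other class of its genotype.

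iNKT17-like cells held the highest mean level of Trgv2, Tcrg-C1 and Tcrg-C2 among the 5 classes in both genotypes. Trgv2 stood at 383 and 381 CPM in C57BL/6 replicates 1 and 2 (mean 382 ± 1.41, SD, n = 2) and at 790 and 771 CPM in Hivep3-/- replicates 1 and 2 (780 ± 13.4, SD, n = 2). In iNKT2-like cells it was 205 and 299 CPM in C57BL/6 and 519 and 494 CPM in Hivep3-/- libraries. In iNKT1-like cells it was 205 and 279 CPM in C57BL/6 and 487 and 441 CPM in Hivep3-/- libraries. The order of the C57BL/6 means was stage 0-like, cycling-like, iNKT1-like, iNKT2-like and iNKT17-like, and the iNKT1-like and iNKT2-like libraries overlapped. The same order held for the means of the Hivep3-/- libraries, where the lowest iNKT2-like library, at 494 CPM, was close to the highest iNKT1-like library, at 487 CPM.

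Tcrg-C1 followed the same course. It was at 39.8 and 51.4 CPM in cycling-like cells of C57BL/6 and at 166 and 250 CPM in their iNKT17-like cells. In Hivep3-/- libraries it was at 37.1 and 45.3 CPM in cycling-like and at 234 and 160 CPM in iNKT17-like cells. In iNKT1-like cells Tcrg-C1 was 43.7 and 92.8 CPM in C57BL/6 and 76.0 and 82.6 CPM in Hivep3-/- libraries, below every iNKT17-like library. In iNKT2-like cells Tcrg-C1 averaged 82.1 ± 22.6 CPM in C57BL/6 and 139 ± 21.2 CPM in Hivep3-/- libraries (SD, n = 2). In cluster 3 of Hivep3-/- libraries it averaged 156 ± 88.4 CPM. Tcrg-C2 in iNKT17-like cells was 57.6 and 96.1 CPM in C57BL/6 and 101 and 119 CPM in Hivep3-/- libraries. In iNKT2-like cells Tcrg-C2 averaged 49.9 ± 28.5 CPM in C57BL/6, where the 2 classes overlapped, and 93.3 ± 2.26 CPM in Hivep3-/- libraries. The iNKT17-like levels of Tcrg-C4 in C57BL/6, 74.7 and 115 CPM, lay within the span of its iNKT2-like levels, 64.5 and 139 CPM. In Hivep3-/- libraries Tcrg-C4 was 177 and 115 CPM in iNKT17-like and 147 and 136 CPM in iNKT2-like cells, and these overlapped too. The share of Tcrg-C1 among UMIs of the 4 γ constant genes was 54.8 and 54.1% in iNKT17-like cells of C57BL/6, against 35.1 and 37.9% in iNKT1-like cells, and was 45.2 and 40.6% against 30.2 and 31.2% in Hivep3-/- libraries. In iNKT2-like cells this share was 50.3 and 23.9% in C57BL/6 and 34.0 and 39.6% in Hivep3-/- libraries. It was thus close to the iNKT17-like share in C57BL/6 replicate 1 and in Hivep3-/- replicate 2.

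Set against the mean of the other 4 classes of the same library, the log2 difference of iNKT17-like cells in C57BL/6 was 1.92 ± 0.10 (SE) for Trgv2, 2.32 ± 0.25 for Tcrg-C1, 1.79 ± 0.16 for Tcrg-C2 and 1.62 ± 0.17 for Tcrg-C4. In Hivep3-/- libraries it was 2.88 ± 0.11, 2.98 ± 0.17, 2.37 ± 0.20 and 2.01 ± 0.19. With the near-empty stage 0-like class left out, the differences were 0.78, 1.58, 0.86 and 0.14 in C57BL/6 and 1.09, 1.28, 0.76 and 0.40 in Hivep3-/- libraries, in the same order of genes. The median over all genes tested was -0.04 in C57BL/6 and -0.05 in Hivep3-/- libraries, with stage 0-like cells in or out. The sizes in the 2 genotypes were not tested against each other.

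Other γ and δ genes were not used to choose the members and were kept out of the clustering, but they are no independent support. Tcrg-V1 and Tcrg-V3 share identical runs with Trgv2, and Tcrg-C3 with Tcrg-C1 and Tcrg-C2, so reads may be misplaced between them. Levels of Tcrg-V4 and Tcrg-V1 also ran with that of Trgv2 over the sums by library and class (Pearson's r = 0.942 and 0.931). These other genes were tested in the same fit (edgeR, quasi-likelihood, Benjamini-Hochberg adjusted over all genes). In C57BL/6, 7 of the 10 that could be tested, all of them γ genes, rose in iNKT17-like cells and none fell, where 25.4% of all genes tested were called and 13.3% were called higher. In Hivep3-/- libraries 4 of 9 rose, again all γ genes, and the δ gene Trdv2-2 fell, where 27.1% of all genes were called and 14% were called higher. That fall rests on 0 UMIs of Trdv2-2 in iNKT17-like cells of Hivep3-/- libraries. Its means in their other classes were only 1.18 to 6.11 CPM, so few UMIs could have been counted in this small class. Tcrg-V4, a variable gene common in IL-17-producing γδ T cells, rose by 2.61 ± 0.12 on the log2 scale in C57BL/6 (adjusted p = 4.88e-14) and by 2.60 ± 0.11 in Hivep3-/- libraries (adjusted p = 2.62e-11). With stage 0-like cells left out it still rose, by 1.51 (adjusted p = 1.46e-11) and by 1.33 (adjusted p = 2.44e-08). Its levels in iNKT17-like cells were 160 and 205 CPM in C57BL/6 and 227 and 268 CPM in Hivep3-/- libraries, above those of every other class and cluster of the same library.

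Tcrg-V1 rose as well, by 1.35 ± 0.23 in C57BL/6 (adjusted p = 0.000115) and by 2.06 ± 0.26 in Hivep3-/- libraries (adjusted p = 1.46e-05). Without stage 0-like cells these were 0.59 (adjusted p = 0.035) and 0.77 (adjusted p = 0.0158), and in that setting 5 of 10 other γ and δ genes rose in C57BL/6 and 2 of 9 in Hivep3-/- libraries, where Trdv2-2 again fell (adjusted p = 0.0321). Of all genes, 10.7% and 10% were called higher in that setting, and 21.6% and 20.5% in either direction. Tcrg-V7, Tcrg-V6 and Tcrg-V3 rose under both settings in C57BL/6 (adjusted p = 0.000199, 0.0017 and 0.000292 with stage 0-like cells). Trdv2-2 was counted at 2 UMIs in the 609 iNKT17-like cells of all libraries, both in C57BL/6 replicate 1. The αβ constant genes did not follow the γ genes: Trac was higher in iNKT17-like cells of C57BL/6 (log2 0.42, adjusted p = 0.00196), Trbc2 was lower by 0.44 on that scale (adjusted p = 1.03e-05), and in Hivep3-/- libraries Trbc1 (log2 -0.77, adjusted p = 9.81e-06) and Trbc2 (log2 -0.52, adjusted p = 2.34e-05) fell. Without stage 0-like cells these calls held, except for Trbc2 in Hivep3-/- libraries (adjusted p = 0.0561).

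The share of cells with a UMI was counted next, which depends on the amount per cell as well as on how many cells hold the transcript. Each cell was thinned to 2000 UMIs so that deep and shallow cells could be compared, and 75 to 502 shallower cells per library were left out. At this depth, 43.5% and 34.9% of iNKT17-like cells of C57BL/6 replicates 1 and 2 had a Trgv2 UMI (exact 95% binomial intervals 36.8 to 50.4 and 26.6 to 43.9). In Hivep3-/- replicates 1 and 2 the shares were 67.4% (58.6 to 75.4) and 69.2% (60.5 to 77.0). In iNKT1-like cells the shares were 28.6 and 34.8% in C57BL/6 and 51.7 and 49.6% in Hivep3-/- libraries. In iNKT2-like cells they were 26.1 and 35.4% in C57BL/6 and 48.8 and 53.3% in Hivep3-/- libraries. The iNKT17-like share of C57BL/6 replicate 2 was thus level with its iNKT1-like and iNKT2-like shares. Within C57BL/6 only replicate 1 had a clearly higher iNKT17-like share, while both Hivep3-/- libraries did. The Trgv2 shares of stage 0-like cells were 1.56, 1.92, 0 and 0.809%. The 0 of 357 cells allows a share of up to 0.84% at a floor of 3 counts (exact interval 0 to 1.03%).

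A UMI of any of the 15 γ genes was found in 72.7 and 80.2% of iNKT17-like cells of C57BL/6 and in 96.9 and 90.8% of those of Hivep3-/- libraries at 2000 UMIs per cell. In iNKT1-like cells it was found in 49.6 and 58.8% and in 74.7 and 74.0%. Without thinning, 91.0 to 100% of iNKT17-like cells had one, at median depths of 5667 to 8190 UMIs. Background was read from 25 B cell-like cells, a cluster seen at resolution 1.2 that should lack γ transcripts, at a median of 2567 UMIs: none of the 18 that reached 2000 UMIs held a γ UMI, which allows a share of up to 16.7% at the same floor (exact interval 0 to 18.5%), and 8% of the 25 did without thinning. The stage 0-like shares of thinned cells lie below that limit of 16.7%. The limit rests on only 18 cells, so it cannot show whether those shares are background.

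**Figure D2:**
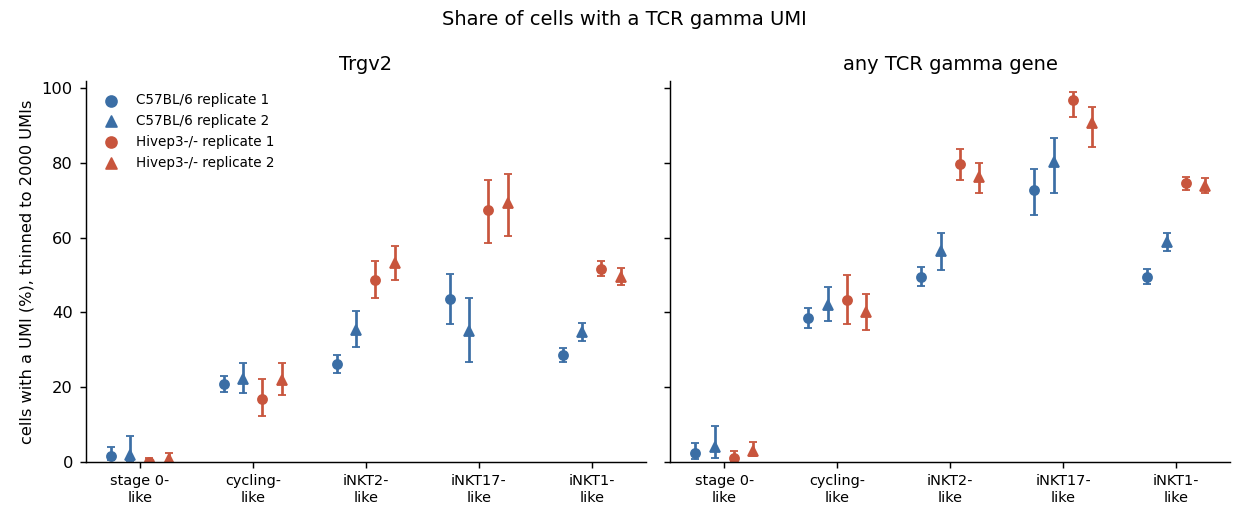
Share of cells with a UMI of Trgv2 (left) or of any TCRγ gene (right) after thinning every cell to 2000 UMIs (y axis, %), by class (x axis) and library (blue, C57BL/6; red, Hivep3-/-; circle and triangle, replicates 1 and 2), with exact 95% binomial intervals for counting error. The Trgv2 shares of iNKT17-like cells were 43.5 and 34.9% in C57BL/6 and 67.4 and 69.2% in Hivep3-/- libraries, and those of cycling-like cells were 16.8 to 22.3% in all 4.

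The amount per cell varied beyond a Poisson spread in every class that expressed the gene. In thinned iNKT17-like cells Trgv2 averaged 0.755 and 0.706 UMIs per cell in C57BL/6 and 1.65 and 1.46 in Hivep3-/- libraries, with variance over mean of 1.52 and 2.15, and of 1.69 and 1.30. Cells with 3 or more UMIs made up 7.41 and 6.35% of iNKT17-like cells of C57BL/6 and 24.0 and 23.1% of those of Hivep3-/- libraries. Among iNKT17-like cells that had a Trgv2 UMI at all, the mean was 1.73 and 2.02 in C57BL/6 and 2.45 and 2.11 in Hivep3-/- libraries. The variance over mean did not run with the mean per cell. It was highest, at 2.15, in C57BL/6 replicate 2, which had the lowest mean, 0.706. Within C57BL/6 the mean among cells with a UMI did not follow the mean per cell either. All these measures come from the same counts and are not separate findings.

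Genotype was then compared class by class. In iNKT2-like cells the log2 difference of Trgv2, Hivep3-/- minus C57BL/6, was 0.91 ± 0.18 (SE), and neither Hivep3-/- library overlapped a C57BL/6 library. iNKT17-like cells gave 0.96 ± 0.16 and iNKT1-like cells gave 0.86 ± 0.17, with no overlap either. Of all genes tested, 30.1%, 23.1% and 25.2% were higher without overlap in these 3 classes, so an absence of overlap was common. The share of all genes called by edgeR in either direction was 0.41% for iNKT2-like cells, 0.0921% for iNKT17-like cells (0.0526% higher and 0.0395% lower) and 0.766% for iNKT1-like cells. Over all cells Trgv2 stood at 178 and 240 CPM in C57BL/6 and at 418 and 350 CPM in Hivep3-/- libraries (log2 0.78 ± 0.18), where 33.7% of genes were higher without overlap and 0.765% were called. Without C57BL/6 replicate 1 the Trgv2 differences were 0.65, 0.95 and 0.67 in the 3 classes and 0.58 over all cells. The 3 main iNKT1-like clusters gave the same picture: cluster 0 held 203 and 291 CPM in C57BL/6 against 533 and 500 CPM in Hivep3-/- libraries, cluster 2 held 216 and 287 against 430 and 384 CPM, and cluster 4 held 202 and 250 against 486 and 429 CPM.

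In cycling-like cells the Trgv2 difference was 0.08 ± 0.14, and both Hivep3-/- libraries lay above the C57BL/6 ones by a small margin, in a class where 40.4% of all genes were higher without overlap and 3.84% were called, with 1.97% of all genes called higher. At clustering resolution 0.4 it was 0.78. The cycling-like class then also held a cluster of 1254 cells led by Gzmb and Srm, whose part in this value was not tested. In stage 0-like cells it was -1.92 ± 0.72, from 1 to 14 UMIs per library, where 30.3% of genes were higher and 10.7% lower without overlap and 0.511% were called. Cluster 8 also had no higher level in Hivep3-/- libraries: Trgv2 was 133 and 197 CPM in C57BL/6 and 126 and 145 CPM in Hivep3-/- libraries. In cluster 3 the levels were 188 and 208 CPM against 555 and 526 CPM, and in the interferon-led cluster 183 and 272 CPM against 531 and 465 CPM. Whether the genotype difference itself differs between classes was not tested.

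**Figure D3:**
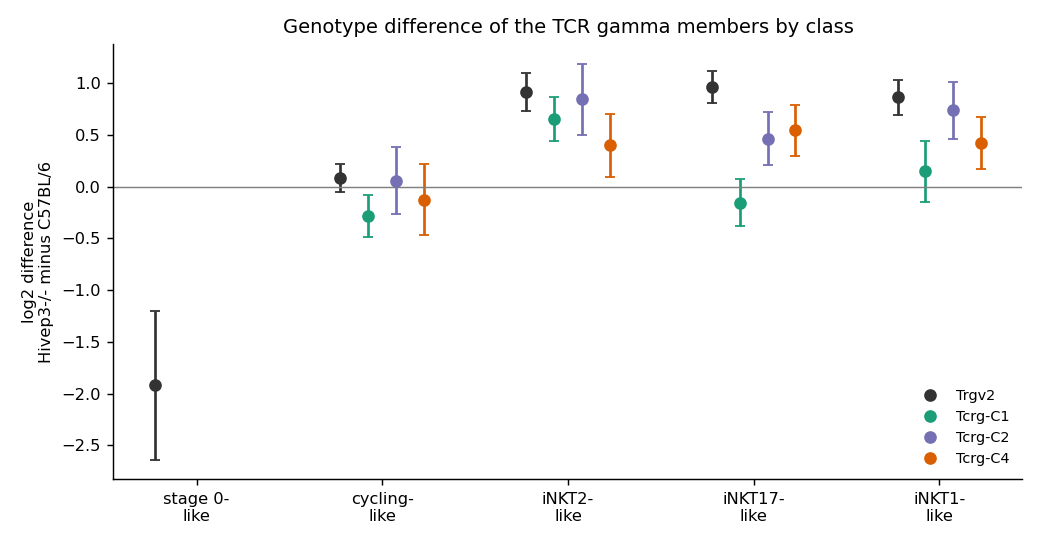
Log2 difference Hivep3-/- minus C57BL/6 (y axis) of Trgv2, Tcrg-C1, Tcrg-C2 and Tcrg-C4 by class (x axis), as fitted over 2 libraries per genotype with bars of 1 SE. Trgv2 was 0.86 to 0.96 in the 3 classes iNKT2-like, iNKT17-like and iNKT1-like and 0.08 in cycling-like cells. In stage 0-like cells only Trgv2 passed the filter on low counts.

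For the constant genes, the genotype differences in the later classes moved when C57BL/6 replicate 1 was left out. Tcrg-C2 gave differences of 0.84 ± 0.34, 0.46 ± 0.25 and 0.74 ± 0.27 for iNKT2-like, iNKT17-like and iNKT1-like cells in this order, and without that library 0.31, 0.12 and 0.34. Tcrg-C4 gave 0.40 ± 0.31, 0.54 ± 0.25 and 0.42 ± 0.25, and without it -0.08, 0.24 and 0.06. Tcrg-C1 gave 0.66 ± 0.21, -0.16 ± 0.23 and 0.15 ± 0.30, and without it 0.97, -0.44 and -0.29. In cycling-like cells the differences were -0.29 ± 0.20 for Tcrg-C1, 0.06 ± 0.32 for Tcrg-C2 and -0.13 ± 0.35 for Tcrg-C4. For scale, the summed αβ constant level in iNKT1-like cells was 428 and 870 CPM in C57BL/6 and 693 and 668 CPM in Hivep3-/- libraries.

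Trgv2 was therefore also counted against the αβ constant genes of the same cells. Per 100 UMIs of Trac, Trbc1 and Trbc2, iNKT1-like cells held 47.9 and 32 Trgv2 UMIs in C57BL/6 and 70.3 and 66.0 in Hivep3-/- libraries. iNKT17-like cells held 67.3 and 42 against 83.0 and 105, and iNKT2-like cells held 41.1 and 30.4 against 52.3 and 56.3. On this scale too the genotypes did not overlap in any of these 3 classes. How many other genes fail to overlap on it was not counted. On the CPM scale 23.1 to 30.1% of all genes were higher without overlap in these classes. The summed γ constant genes gave 53.1 and 51.0 per 100 in iNKT17-like cells of C57BL/6 and 54.3 and 53.5 in those of Hivep3-/- libraries. They gave 29.1 and 28.1 against 36.3 and 39.6 in iNKT1-like cells, and 39.1 and 28.1 against 36.6 and 44.4 in iNKT2-like cells, where the genotypes overlapped. In cycling-like cells Trgv2 gave 24.7 and 14.0 in C57BL/6 and 17.1 and 15.2 in Hivep3-/- libraries.

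Among γ and δ genes outside the members, 1 was called between genotypes. Tcrg-V1 rose in iNKT1-like cells of Hivep3-/- libraries by 1.14 ± 0.18 on the log2 scale (edgeR, adjusted p = 0.0358), from 16.3 and 15.7 CPM to 43.9 and 30.9 CPM. It is 1 of 8 tested in that class, where 0.558% of all genes were called higher, and its call was lost when either C57BL/6 library was left out (adjusted p = 0.201 without replicate 1 and 0.0983 without replicate 2). Tcrg-V1 shares identical runs with Trgv2, so the counts are not independent. In iNKT1-like cells 7 of the 8, all but Trdv2-2, had a positive difference, with a median of 0.92 against -0.00 over all genes. Tcrg-V4, which shares no such run, gave 1.09 ± 0.17 in iNKT2-like cells (adjusted p = 0.0514, and 0.88 with adjusted p = 0.107 without C57BL/6 replicate 1), with levels of 62.6 and 82.7 CPM in C57BL/6 and 158 and 170 CPM in Hivep3-/- libraries. Tcrg-V3 gave 1.14 ± 0.21 in iNKT1-like cells (adjusted p = 0.0591), and 1.26 without that library (adjusted p = 0.204).

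**Figure D4:**
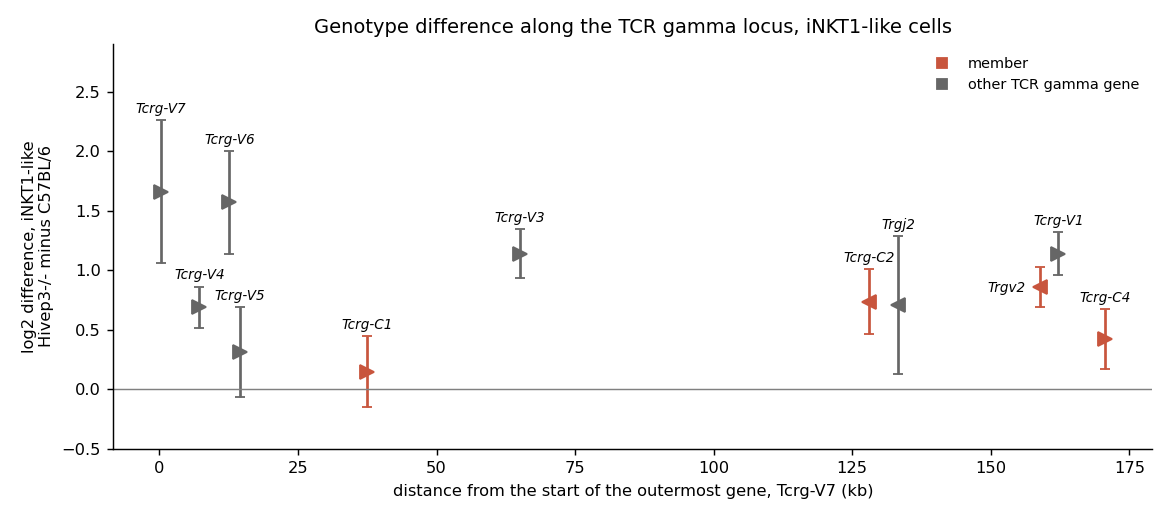
Log2 difference Hivep3-/- minus C57BL/6 in iNKT1-like cells (y axis, bars of 1 SE, 2 libraries per genotype) against distance along the TCRγ locus in kb (x axis). Red marks members, grey marks other TCRγ genes that passed the filter, and the triangles point in the direction of transcription. With all libraries every gene plotted lay above 0, from 0.15 for Tcrg-C1 to 1.66 for Tcrg-V7, but without C57BL/6 replicate 1 Tcrg-C1 (-0.29) and Tcrg-V5 (-0.18) lay below it.

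Trgv2 made up 54.6 to 72.0% of γ V UMIs in the classes from cycling-like onward, a make-up of counted UMIs in which reads shared with Tcrg-V1 and Tcrg-V3 may be misplaced. Of all γ V UMIs in iNKT1-like cells, Trgv2 made up 68.7 and 70.4% in C57BL/6 and 72.0 and 68.2% in Hivep3-/- libraries. In cycling-like cells it made up 63.3, 65.9, 61.6 and 62.3%, and in iNKT17-like cells 59.3 and 56.2% in C57BL/6 and 66.7 and 68.1% in Hivep3-/- libraries. The genotypes overlapped in iNKT1-like but not in iNKT17-like cells. How often other genes fail to overlap on such a share was not counted.

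Within single iNKT1-like cells, Trgv2 went together with Tcrg-C2 more than with the other constant genes. In thinned cells of C57BL/6 replicates 1 and 2, Tcrg-C2 was found in 10.2 and 18.4% of cells with a Trgv2 UMI and in 3.90 and 6.34% of the rest. In Hivep3-/- replicates 1 and 2 the shares were 16.9 and 16.8% against 11.1 and 8.92%. The ratio of these shares was 1.52 to 2.9 over the 4 libraries, against 1.09 to 1.38 for Tcrg-C1 and 1.12 to 1.56 for Tcrg-C4. In each library except C57BL/6 replicate 1 Tcrg-V4 gave its highest ratio with Tcrg-C1, up to 1.86, and its ratios with Tcrg-C2 were 0.88 to 1.30. Trgv2, Trgj2 and Tcrg-C2 lie on the same strand, and Tcrg-V4 and Tcrg-C1 lie together on the other. The cells of a library are not replicates, so no test is given. Cells with both Trgv2 and Tcrg-V4 were common, with 80 to 255 iNKT1-like cells per library.

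**Figure D5:**
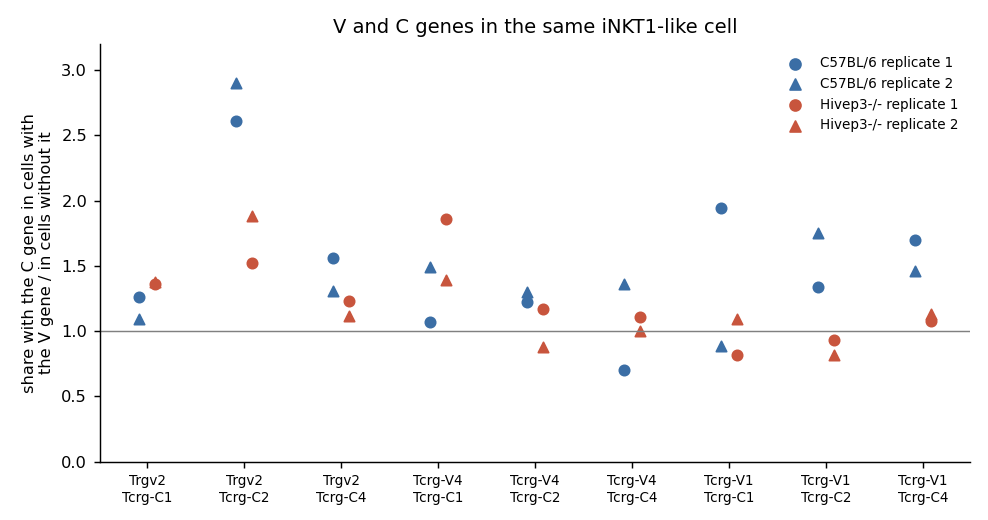
Share of iNKT1-like cells with a given γ constant gene among cells with a given V gene, divided by the share among cells without that V gene (y axis), for each V and C pair (x axis), with a point per library after thinning to 2000 UMIs. Trgv2 with Tcrg-C2 gave 2.61 and 2.9 in C57BL/6 and 1.52 and 1.88 in Hivep3-/- libraries.

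Trdc, the δ member, was nearly absent. It was counted at 14 and 6 UMIs in C57BL/6 replicates 1 and 2 and at 10 and 19 UMIs in Hivep3-/- replicates 1 and 2, in 38 of all cells, with at most 4 UMIs in a cell. Cycling-like cells held 26 of the 49 UMIs and iNKT17-like cells held 3. Of the 38 cells, 35 also had a UMI of an αβ constant gene. Per library, 81.4 to 96% of all cells had such a UMI. The δ variable genes Trdv2-2 and Trdv1 were counted at 286 and 70 UMIs, in 173 and 18 cells, of which 162 and 18 had an αβ constant UMI. Gm43434, which overlaps Trdc on the other strand, was counted at 0 UMIs in every library. The log2 difference of Trdc over all cells was 0.59 ± 0.57.

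Genes tied to γδ and type 17 programs, and to opening and rearrangement of TCR loci, were read beside the members from 2 lists. Both lists were chosen with earlier results of these data known. Their calls, and the shares set beside them, are therefore descriptions and no independent test. Of 10 genes of the first list, 4 were tested in iNKT1-like cells and 2 rose in Hivep3-/- libraries, where 0.558% of all genes were called higher. 5830411N06Rik (log2 2.03 ± 0.17, adjusted p = 0.00185) and Cd163l1 (log2 2.70 ± 0.32, adjusted p = 0.00854) both encode scavenger receptors of the SCART type found on γδ T cells. Cd163l1 did not pass in iNKT17-like cells, where it was at 19.4 and 24.7 CPM in C57BL/6 and 8.38 and 7.95 CPM in Hivep3-/- libraries (log2 -1.49 ± 0.39, adjusted p = 0.328), nor in cycling-like cells (log2 -0.86, adjusted p = 0.2). 5830411N06Rik also rose in iNKT17-like cells (1 of 8 tested, against 0.0526% of all genes), by 1.85 ± 0.18 (adjusted p = 0.00153), from 86.3 and 86.9 CPM to 360 and 299 CPM. In cycling-like cells 3 of 6 fell and none rose, where 1.87% of all genes were called lower: Maf (log2 -1.67, adjusted p = 0.0112), Blk (log2 -2.74, adjusted p = 0.0288) and Sox13 (log2 -3.29, adjusted p = 0.0453), which take part in the type 17 program. Maf was counted there at 532 and 299 UMIs in C57BL/6 and at 46 and 61 in Hivep3-/- libraries. Blk was at 80 and 61 against 4 and 5 UMIs and Sox13 at 41 and 13 against 1 and 1. The sizes of the Blk and Sox13 falls thus rest on few UMIs. Between genotypes in iNKT2-like cells 0 of 5 were called by edgeR, and 1 had an unadjusted p under 0.05, a share not counted over all genes.

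In the second list, of 15 genes, Id2, an inhibitor of E proteins, fell in stage 0-like (log2 -2.26, adjusted p = 0.000284) and cycling-like cells (log2 -1.06, adjusted p = 0.0104) of Hivep3-/- libraries. Runx3 rose in cycling-like cells (log2 1.12, adjusted p = 0.0331), and Runx1 fell in iNKT1-like cells (log2 -1.26, adjusted p = 0.0202). In stage 0-like cells 1 of 12 tested thus fell, where 0.341% of all genes were called lower. In cycling-like cells 1 of 13 fell and 1 rose, where 1.87% of all genes were called lower and 1.97% higher. In iNKT1-like cells 1 of 12 fell, where 0.208% of all genes were called lower. No gene of this list was called in iNKT2-like cells, where 5 of 13 tested had an unadjusted p under 0.05, or in iNKT17-like cells, where 1 of 13 did. How many of all genes had such an unadjusted p was not counted, so nothing is drawn from these numbers. Il7r, whose receptor signal opens the γ locus in early thymocytes, was named after its values were seen. In iNKT2-like cells it was at 446 and 420 CPM in C57BL/6 and at 834 and 722 CPM in Hivep3-/- libraries (log2 0.74 ± 0.12, edgeR, adjusted p = 0.0566). Its difference was 0.34 ± 0.15 in iNKT17-like cells (adjusted p = 0.864) and -0.07 ± 0.18 in iNKT1-like cells (adjusted p = 0.962). It was 0.28 in cycling-like and -0.35 in stage 0-like cells. A tie of Il7r to the γ levels was not tested.

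Outside the TCRγ locus, 11 genes lie within 500 kb on either side, of which 2 to 5 passed the filter in a given class. Gpr141, 397 kb away, rose in iNKT1-like cells of Hivep3-/- libraries (log2 2.69 ± 0.46, adjusted p = 0.0485), from 4 UMIs in each C57BL/6 library to 66 and 32 UMIs. No other neighbour was called between genotypes in any class. Of the 3 αβ constant genes, 0 were called by edgeR between genotypes in any class. An unadjusted p under 0.05 was seen for 2, both in stage 0-like cells, a share not counted over all genes. Amph, 27.1 kb away, was at 6.4 to 9.33 CPM in iNKT17-like cells of the 4 libraries and at 0 to 1.89 CPM in the other 4 classes, a level that was part of the clustering and is given without a test. Epdr1, 239 kb away, averaged 6.88 CPM in iNKT17-like cells of C57BL/6, from 17 UMIs, and 0 to 2.02 CPM in their other 4 classes. In Hivep3-/- libraries it averaged 2.72 CPM, from 6 UMIs, against 0.0286 to 1.64 CPM, also given without a test.

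The genes whose level ran most like that of the members were found over the 20 sums of 4 libraries and 5 classes, among 5309 genes that averaged 20 CPM or more. For Trgv2 they were Thy1 (r = 0.968), Qpct (0.965), Slfn2 (0.965), Tgtp2 (0.965) and Capg (0.958), as Pearson's r of log2(CPM + 1), and for Tcrg-C1 they were Tmem154 (0.934), Pkp3 (0.934), Adgrg5 (0.930), Tmem64 (0.927) and Tgtp2 (0.926). Within the locus, Trgv2 had r = 0.990 with Tcrg-C2, 0.946 with Tcrg-C4, 0.942 with Tcrg-V4 and 0.937 with Tcrg-C1. The 20 sums share libraries and their lowest values are the stage 0-like cells, so these are descriptions. Thy1, the T cell surface protein Thy-1, was at 32.4 to 74.5 CPM in stage 0-like cells and at 975 to 1500 CPM in iNKT17-like cells.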

How the data were processed

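The authors made the deposited counts, raw UMI counts per gene and cell barcode, with Cell Ranger 3.1.0 on mm10, as the labels and the study's methods state; no normalization was applied, and the sources used here do not give whether counting used strand. Each library was 1 mouse, grouped by its title. Cells were kept that had 500 to 4100 genes (4100 itself left out), a total of 1000 UMIs or more and a mitochondrial share below 6%. Scrublet (scanpy 1.11.5, Python 3.11.15) called 1 to 4 cells per library and so had not worked. Doublets were therefore left in, except in 1 alternative. Cells were clustered in R 4.3.3 with Seurat 5.3.0 on 2000 variable genes and 30 principal components at resolution 0.8 after a mutual nearest neighbour correction (20 neighbours), with 268 TCR genes left out. The scoring that named clusters was set after the data were seen. Unnamed clusters 3, 8 and 12 held 5.57 to 14.8%, 0.959 to 8.16% and 0.072 to 1.12% of cells per library.

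UMIs were summed per library and class. Genotypes were compared with edgeR 4.0.16 (quasi-likelihood, TMM, filter on low counts), and iNKT17-like cells with the other classes within a genotype with library as a block, with p-values adjusted over all genes and called under 0.05. The members' p-values are not given. With 2 mice per group, p-values rest on few samples. The fit was tested on simulated data. Of simulated 2-fold changes, 54 of 92 were found in iNKT17-like and 76 of 98 in iNKT1-like cells, with 7 false calls in each. A gene that was not called may therefore still differ. Alternatives were DESeq2 1.42.0, no filter, leaving out each library, a replicate block, resolutions 0.4 and 1.2, and removing the 5% of cells with the highest doublet scores. Leaving out stage 0-like cells was added after the data were seen. Genes named outside the members were TCRγ and TCRδ genes with at least 20 UMIs, at most 4 called genes per list and comparison, called neighbours, and the 5 genes most like Trgv2 and Tcrg-C1. The members and lists were chosen with earlier results of these data known. Sequences and positions came from GENCODE vM21 (GRCm38, the assembly of mm10).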

Additional observations from a re-analysis of the deposited data

Results flagged for a closer look

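Levels of 3 members in stage 0-like cells were lower in both Hivep3-/- libraries than in either C57BL/6 library, while in at least 1 later class they were higher in both, and this difference was not tested. Trgv2 averaged 2.82 CPM in stage 0-like cells of Hivep3-/- libraries against 10.5 CPM in C57BL/6, while both Hivep3-/- libraries were higher in iNKT2-like, iNKT17-like and iNKT1-like cells. Tcrg-C1 averaged 0.816 CPM in stage 0-like cells of Hivep3-/- libraries, and Tcrg-C2 averaged 0.805 CPM, again below both C57BL/6 libraries, while both genes were higher in both Hivep3-/- libraries in iNKT2-like cells. Tcrg-C1 had a negative difference in cycling-like (-0.29) and iNKT17-like cells (-0.16) as well. In the Hivep3-/- and C57BL/6 libraries these stage 0-like levels rest on 14 and 22 UMIs of Trgv2, on 4 and 20 of Tcrg-C1, of which 16 came from 1 cell of C57BL/6 replicate 2, and on 4 and 7 of Tcrg-C2. In that class 10.7% of all genes tested were lower in both Hivep3-/- libraries than in either C57BL/6 library.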

How the results depend on the processing

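The number of other TCRγ and TCRδ genes called between genotypes moved with the processing. Over all cells none was called, 3 were called when low counts were not filtered and 1 by DESeq2. In cycling-like cells it was 0, then 4 with no filter, 1 at resolution 0.4 and 0 to 1 when a library was left out. In iNKT2-like cells it was 0, then 1 with no filter, with DESeq2, with a replicate block and at resolution 1.2 (Tcrg-V4 in each), and 0 to 1 when a library was left out. In iNKT17-like cells it was 0, and 0 to 1 when a library was left out. In iNKT1-like cells it was 1, then 5 with no filter, 2 with DESeq2, 3 with a replicate block, 2 at resolution 1.2, 0 at resolution 0.4, 0 without the highest doublet scores and 0 to 4 when a library was left out. The cause was not tested.

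Among members, the difference of Trdc over all cells, 0.59, ran from -0.0839 to 1.05 when a library was left out, the negative value being that without Hivep3-/- replicate 2. That of Trgv2 in stage 0-like cells ran from -4.54 to -1.02, and in cycling-like cells it was 0.78 at resolution 0.4. For iNKT17-like cells against the other classes, leaving out stage 0-like cells gave 0.78, 1.58, 0.86 and 0.14 for Trgv2, Tcrg-C1, Tcrg-C2 and Tcrg-C4 in C57BL/6 and 1.09, 1.28, 0.76 and 0.40 in Hivep3-/- libraries, with 3 in place of 5 other genes called in the latter. Leaving out a library gave 2.23 to 2.67 for Tcrg-C1 in C57BL/6, and 2.70 to 3.46 for Trgv2 and 2.27 to 2.93 for Tcrg-C2 in Hivep3-/- libraries, values with no test since 1 library remained. Tcrg-C4 in Hivep3-/- libraries was 2.34 without the highest doublet scores. Without thinning, the share of iNKT1-like cells with a Trgv2 UMI was 32.3 percentage points higher in Hivep3-/- libraries, in place of 19.0.

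Mouse numbers mark no shared batch in the labels, and deviations of same-numbered samples had a correlation of 0.0147. With a replicate block the genes called over all cells and in stage 0-like, cycling-like, iNKT2-like, iNKT17-like and iNKT1-like cells were 212, 155, 715, 144, 42 and 155, in place of 94, 45, 398, 39, 7 and 81. Unfiltered counts gave 965, 87, 1116, 352, 95 and 434. Depth limits the stage 0-like levels, which rest on few UMIs.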
